A study of Mus musculus with 9 samples.

Results

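Alveolar type 1 genes are genes used to mark the flat epithelial cells that line most of the gas-exchange surface of the lung. The 10 genes described here, Ager, Hopx, Aqp5, Pdpn, Rtkn2, Akap5, Clic5, Spock2, Cldn18 and Gprc5a, were taken by exact gene name from a deposited table of 27207 genes, and all 10 passed the filter on low counts that left 19374 genes for testing. They were followed across 9 RNA-seq libraries of whole E18.5 mouse lung, shortly before birth.

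Alveolar type 1 cells form late in gestation from distal epithelial progenitors that also give rise to the surfactant-producing alveolar type 2 cells. As the distal tips widen into saccules, future type 1 cells flatten and spread along the capillaries, and they switch on genes for membrane receptors, water channels, junctions and matrix. The transcription factor NKX2-1 and the YAP and TAZ coactivators with their TEAD partners are known to act in this step.

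The libraries fell into 3 groups of 3. Weak conditional knockout (CKO) lungs and strong CKO lungs both carried Tbx4-rtTA, Tet-O-Cre and Dnmt1-D/D, and the remaining group was wild type. Weak CKO lungs were described as small for their stage, and strong CKO lungs as small with bleeding spread through the tissue. Dnmt1 encodes the enzyme that copies DNA methylation after replication, and the Tbx4 lung element is known to drive expression in lung mesenchyme, whereas alveolar type 1 cells are epithelial. The tissue was whole lung, so the RNA of every cell type was read together. The labels did not say whether lungs came from separate litters, so each p-value here covers only the spread among the 9 lungs, which may be in part technical.

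Totals ran from 25607595 to 33156732 counts per library. Levels are given in CPM, counts scaled to library size, with the trimmed mean of M values (TMM) correction. Dnmt1 itself stood at 59.1 to 80.6 CPM in weak CKO lungs, 62.0 to 78.7 CPM in strong CKO lungs and 79.1 to 121 CPM in wild type lungs, and its log2 change was −0.51 ± 0.17 in weak CKO lungs (SE, adjusted p = 0.0727) and −0.53 ± 0.17 in strong CKO lungs (SE, adjusted p = 0.0433). Library titles carry a middle number that groups share in part, and the sources used here do not say what it stands for. Values are given in the order MUT_W_265_2, MUT_W_268_3 and MUT_W_549_3 for weak CKO lungs, MUT_S_265_5, MUT_S_268_4 and MUT_S_860_3 for strong CKO lungs, and WT_265_1, WT_268_1 and WT_549_2 for wild type lungs. Library WT_265_1 stood apart, with the highest level of all 9 libraries for 9 of the 10 genes. It also had the highest erythroid level of the 3 wild type libraries (mean log2 CPM 6.59, against 5.87 and 5.77), and values without it are given where it moved a result most.

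All 10 are annotated as protein-coding genes in GENCODE M21 (GRCm38). The receptors and the channel lie apart, Ager (ENSMUSG00000015452) at chr17:34597862-34600936 on the plus strand, Gprc5a (ENSMUSG00000046733) at chr6:135065651-135084709 on the plus strand and Aqp5 (ENSMUSG00000044217) at chr15:99590782-99594829 on the plus strand. The membrane and cytoskeletal genes are Pdpn (ENSMUSG00000028583) at chr4:143267431-143299564 on the minus strand and Clic5 (ENSMUSG00000023959) at chr17:44188584-44280172 on the plus strand. The scaffolds are Akap5 (ENSMUSG00000021057) at chr12:76324891-76334153 on the plus strand and Rtkn2 (ENSMUSG00000037846) at chr10:67979570-68059740 on the plus strand. The junction and matrix genes are Cldn18 (ENSMUSG00000032473) at chr9:99689461-99717267 on the minus strand and Spock2 (ENSMUSG00000058297) at chr10:60106219-60135198 on the plus strand, and the transcriptional regulator is Hopx (ENSMUSG00000059325) at chr5:77086988-77115121 on the minus strand. The deposited table holds 1 count per gene and library, so the transcripts of a gene were not told apart.

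Every one of the 10 genes was well read, with at least 2556 counts in each library. Together they took 0.662%, 0.575% and 0.584% of all counts in weak CKO lungs, 0.586%, 0.575% and 0.571% in strong CKO lungs, and 0.749%, 0.623% and 0.641% in wild type lungs. The strong CKO shares lay below all 3 wild type shares, and the weak CKO shares overlapped them. Levels can be compared between genes only per length, and CPM per kilobase of merged exons was used for this. On that scale Ager, the receptor for advanced glycation end products on the basal side of type 1 cells, led in wild type lungs with 725 ± 72.6 CPM per kilobase (SD, n = 3). Gprc5a, an orphan G protein-coupled receptor induced by retinoic acid, and Hopx, an atypical homeodomain protein that does not bind DNA itself, followed with 359 ± 27.4 and 332 ± 46.1 CPM per kilobase, a pair whose spreads overlapped. Next stood Cldn18 at 206 ± 17.2 and Akap5 at 188 ± 23.1 CPM per kilobase, again within their spread of each other. Clic5 followed at 133 ± 25.3 and Pdpn at 90.3 ± 15.5 CPM per kilobase. Spock2 at 49.3 ± 9.76, Aqp5 at 46.7 ± 8.95 and Rtkn2 at 40.7 ± 27.6 CPM per kilobase closed the order and could not be ranked among themselves.

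Because Dnmt1 acts on CpG sites, the CpG sites before the starts of 4 of these genes are shown: the most abundant one, Ager, and the 3 that fell in strong CKO lungs, Pdpn, Akap5 and Cldn18. Each line holds the 250 bases before the RefSeq gene start (GRCm38.p6), on the gene's strand, in lower case with every CpG in capitals. Methylation was not measured in these samples.
Ager, chr17:34597600-34597849, plus strand: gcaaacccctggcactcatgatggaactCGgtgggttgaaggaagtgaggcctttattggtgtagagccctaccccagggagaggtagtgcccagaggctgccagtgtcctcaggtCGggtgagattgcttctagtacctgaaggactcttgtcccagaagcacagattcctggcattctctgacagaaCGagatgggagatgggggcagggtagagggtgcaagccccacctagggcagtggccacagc
Pdpn, chr4:143299565-143299814, minus strand: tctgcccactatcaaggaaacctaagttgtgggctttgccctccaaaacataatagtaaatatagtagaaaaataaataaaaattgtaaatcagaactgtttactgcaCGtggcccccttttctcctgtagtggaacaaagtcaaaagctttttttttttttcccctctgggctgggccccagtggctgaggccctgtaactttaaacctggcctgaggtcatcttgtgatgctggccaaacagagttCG
Akap5, chr12:76324641-76324890, plus strand: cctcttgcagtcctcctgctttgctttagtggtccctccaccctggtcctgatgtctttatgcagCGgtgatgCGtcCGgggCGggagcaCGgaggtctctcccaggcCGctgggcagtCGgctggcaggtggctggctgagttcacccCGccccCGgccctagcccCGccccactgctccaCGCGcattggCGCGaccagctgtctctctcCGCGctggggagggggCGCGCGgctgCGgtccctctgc
Cldn18, chr9:99717268-99717517, minus strand: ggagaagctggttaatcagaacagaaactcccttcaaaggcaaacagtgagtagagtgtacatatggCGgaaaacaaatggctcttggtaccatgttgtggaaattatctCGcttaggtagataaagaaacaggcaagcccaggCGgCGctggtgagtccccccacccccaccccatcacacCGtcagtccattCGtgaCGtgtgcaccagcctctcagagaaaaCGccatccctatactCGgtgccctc

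Cldn18 has another RefSeq window, at chr9:99710064-99710313 with 7 CpG sites, and the one shown is that before the start of the annotated gene. The window of Akap5 held 20 CpG sites, that of Cldn18 held 9, that of Ager held 3 and that of Pdpn held 2. Over 32851 RefSeq promoter windows of the same length the median was 6 CpG sites, with an interquartile range of 2 to 16. The 3 genes that fell differed in this respect, Akap5 lying above that range, Cldn18 inside it and Pdpn at its lower end. RefSeq windows were found for 8 of the 10 genes, 10 windows in all, of which 3 (1 of Hopx, and those of Aqp5 and Spock2) ran into annotated exons, and Rtkn2 and Gprc5a were not matched. Among them the TEAD motif GGAATG, searched on both strands like the other motifs, was found in no window (12.6% of all promoter windows hold it), nor was the AP-1 motif TGAGTCA (4.46% of all). The NKX2-1 motif CTTGAG, whose end can overlap the start of the AP-1 motif, was found in 2 of the 10 windows, 1 of Hopx and that of Spock2, and 13.3% of all windows hold it.

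In strong CKO lungs 3 of the 10 genes fell and none rose by edgeR's quasi-likelihood test at an adjusted p under 0.05, against 25.6% of all genes tested that changed and 11.0% that fell. At an unadjusted p under 0.05 the count was 7 of 10, against 38.1% of all genes. The 3 were Pdpn, Akap5 and Cldn18. The median log2 change of the 10 genes was −0.26, against −0.00097 over all genes, and 9 of the 10 values lay below 0, as did 50.1% of all genes. Without WT_265_1 the median was −0.18. In bulk tissue, fewer alveolar type 1 cells and less of these RNAs per cell cannot be told apart.

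**Figure D1:**
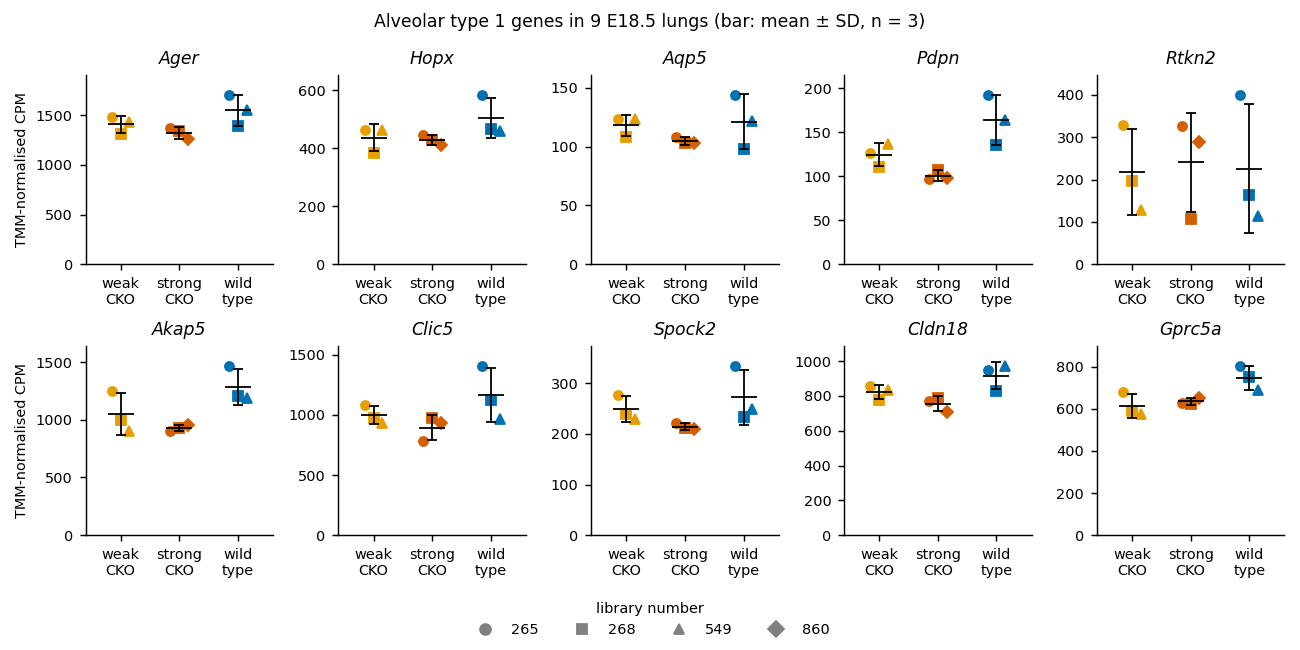
Level of each alveolar type 1 gene in TMM-normalised CPM (vertical axes, from 0) in weak CKO, strong CKO and wild type lungs. Points are libraries with the marker giving the library number, and bars are the mean ± SD of 3 libraries. Pdpn in strong CKO lungs lies at 96.3 to 107 CPM, below 136 to 192 CPM in wild type lungs, and Rtkn2 spreads widely in every group.

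Pdpn showed the largest fall of the 10. It encodes podoplanin (T1alpha), a mucin-type glycoprotein of the apical membrane that is also made by mesothelium and lymphatic endothelium. Its level was 126, 111 and 136 CPM in weak CKO lungs, 96.3, 107 and 97.3 CPM in strong CKO lungs, and 192, 136 and 164 CPM in wild type lungs. All 3 strong CKO libraries lay below all 3 wild type libraries, and the weak CKO and wild type groups overlapped at 136 CPM. Pdpn averaged 100.3 ± 6.15 CPM in strong CKO lungs and 164 ± 28.2 CPM in wild type lungs (SD, n = 3 each), a log2 change of −0.71 ± 0.12 (SE, 95% interval −0.98 to −0.44, edgeR adjusted p = 0.00254). On the linear scale it fell by 38.8%. In weak CKO lungs, at 124 ± 12.9 CPM (SD, n = 3), the log2 change was −0.40 ± 0.12 and missed the threshold (edgeR adjusted p = 0.0527). The fall in strong CKO lungs passed the test under every alternative tried, and without WT_265_1 it was −0.58 (edgeR adjusted p = 0.00480).

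Cell types other than type 1 cells carry Pdpn, and some of their markers moved too. Of 8 genes listed as mesothelial markers 4 rose in strong CKO lungs (Krt14, Wt1, Gpm6a and Bnc1) and 3 in weak CKO lungs. Over all genes 25.6% changed in strong CKO lungs and 11.0% fell, and in weak CKO lungs 14.5% changed and 5.38% fell. Krt14, which is also a keratin of basal epithelial cells, was low, at 0.34 to 4.59 CPM. Msln, Upk3b, Upk1b and Lrrn4 passed in neither CKO group, with log2 changes of −0.20 to 0.021 in strong CKO lungs. Summed levels were 583 to 1029 CPM in weak CKO lungs and 647 to 1119 CPM in strong CKO lungs. In wild type lungs they were 1420 CPM in WT_265_1, 662 CPM in WT_268_1 and 639 CPM in WT_549_2, so the top of the wild type range rests on WT_265_1. Of 5 lymphatic markers 2 fell in strong CKO lungs, Flt4 (log2 change −0.63 ± 0.093) and Lyve1 (−0.91 ± 0.18), and 1, Flt4, fell in weak CKO lungs. Mmrn1, Prox1 and Reln passed in neither CKO group, with strong CKO log2 changes of −0.30, 0.27 and 0.082. The weak CKO count was 0 without MUT_W_265_2 or MUT_W_268_3 and 2 without MUT_W_549_3. The lymphatic markers summed to 220 to 271 CPM in weak CKO lungs, 174 to 231 CPM in strong CKO lungs and 316 to 323 CPM in wild type lungs. No marker of either list was at 0 in all libraries. Their part in the fall of Pdpn was not tested.

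Among the signalling scaffolds, Akap5, which tethers protein kinase A and its partners near the membrane, fell in strong CKO lungs. Its level was 1253, 1000.1 and 900 CPM in weak CKO lungs, 905, 931 and 958 CPM in strong CKO lungs, and 1467, 1204 and 1185 CPM in wild type lungs. Strong CKO libraries lay close together and below every wild type library, while MUT_W_265_2 lay inside the wild type range. The log2 change was −0.46 ± 0.13 in strong CKO lungs (SE, 95% interval −0.75 to −0.18, edgeR adjusted p = 0.0229) and −0.29 ± 0.13 in weak CKO lungs (edgeR adjusted p = 0.164). The strong CKO call ended without WT_265_1 (−0.36, edgeR adjusted p = 0.0633) and without any 1 of the strong CKO libraries (edgeR adjusted p of 0.0570 to 0.0808).

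Rtkn2 behaved unlike the other 9 genes. Its level was 328, 197 and 127 CPM in weak CKO lungs, 326, 107 and 289 CPM in strong CKO lungs, and 400.1, 162 and 114 CPM in wild type lungs. MUT_W_265_2, MUT_S_265_5 and WT_265_1, which share a number, were high, as was MUT_S_860_3, and the highest library of the series was 3.73 times the lowest. Within groups the SD of its log2 CPM was 0.84, against 0.096 to 0.19 for the other 9 genes. Of 3981 genes with a mean log2 CPM of at least 6, only 3 had a larger within-group SD, and the median was 0.095. Its log2 change of 0.093 ± 0.64 in strong CKO lungs (SE, 95% interval −1.42 to 1.61) and −0.053 ± 0.64 in weak CKO lungs (SE, 95% interval −1.57 to 1.46) leaves a wide range of values possible, and the sign turned under several alternatives.

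**Figure D2:**
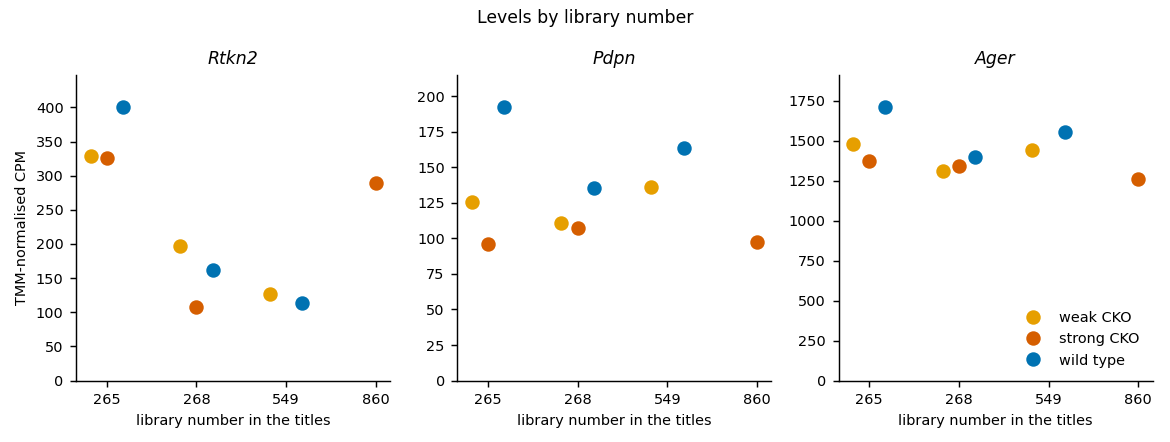
Levels of Rtkn2, Pdpn and Ager in TMM-normalised CPM (vertical axes, from 0) by the library number in the titles, colour giving weak CKO, strong CKO or wild type. Rtkn2 is at 326 to 400.1 CPM in the libraries of the first number, at 107 to 197 CPM in those of the next ones, and at 289 CPM in MUT_S_860_3. Pdpn and Ager do not separate by number in this way.

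Of the junction and matrix genes, Cldn18, the claudin of alveolar tight junctions that type 2 cells also make, fell in strong CKO lungs. Its level was 856, 775 and 836 CPM in weak CKO lungs, 771, 786 and 706 CPM in strong CKO lungs, and 949, 829.6 and 973 CPM in wild type lungs. All strong CKO libraries lay below all wild type libraries, whereas weak CKO and wild type overlapped. The log2 change was −0.28 ± 0.087 in strong CKO lungs (SE, 95% interval −0.47 to −0.089, edgeR adjusted p = 0.0367) and −0.16 ± 0.087 in weak CKO lungs (edgeR adjusted p = 0.268). The strong CKO call was lost in 10 of 20 alternatives, among them leaving out WT_265_1 (−0.26, edgeR adjusted p = 0.0747), WT_549_2 (−0.24), MUT_W_268_3 (−0.28), MUT_S_265_5 (−0.29), MUT_S_268_4 (−0.31) or MUT_S_860_3 (−0.23). Spock2, the matrix proteoglycan testican-2, stood at 278, 240.3 and 229 CPM in weak CKO lungs, 222, 212 and 209.9 CPM in strong CKO lungs, and 334, 234 and 249 CPM in wild type lungs. Again no strong CKO library reached the lowest wild type library, but the log2 change of −0.35 ± 0.13 did not pass (edgeR adjusted p = 0.0707), and in weak CKO lungs the value was −0.13 ± 0.13.

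Clic5, a chloride intracellular channel protein that binds the cortical actin cytoskeleton through ezrin, stood at 1083, 972 and 935 CPM in weak CKO lungs, 780.2, 972 and 931 CPM in strong CKO lungs, and 1407, 1120.4 and 969 CPM in wild type lungs. The groups overlapped, since WT_549_2 was as low as MUT_S_268_4. The log2 change was −0.38 ± 0.14 in strong CKO lungs (SE, edgeR adjusted p = 0.0670) and −0.23 ± 0.14 in weak CKO lungs (edgeR adjusted p = 0.323), neither past the threshold, and without WT_265_1 the strong CKO value was −0.22.

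The 2 receptors gave small differences. Ager, the most abundant of the 10 per kilobase, stood at 1481, 1309.7 and 1438 CPM in weak CKO lungs, 1371, 1340.5 and 1258 CPM in strong CKO lungs, and 1708, 1396 and 1555 CPM in wild type lungs. Strong CKO libraries lay just below the lowest wild type library, and weak CKO libraries overlapped wild type. The log2 change was −0.23 ± 0.096 in strong CKO lungs (SE, edgeR adjusted p = 0.103) and −0.14 ± 0.096 in weak CKO lungs (edgeR adjusted p = 0.380), so Ager did not pass the test in either group, and the 95% intervals ran from −0.44 to −0.019 and from −0.35 to 0.072. Gprc5a was the only gene of the 10 whose 3 weak CKO libraries all lay below wild type, at 679, 589 and 575 CPM in weak CKO lungs, 628, 625 and 652 CPM in strong CKO lungs, and 804, 751 and 689.7 CPM in wild type lungs. Its strong CKO libraries were also all below wild type. The log2 change was −0.28 ± 0.087 in weak CKO lungs (SE, edgeR adjusted p = 0.0539) and −0.24 ± 0.087 in strong CKO lungs (edgeR adjusted p = 0.0713), both short of the threshold.

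Hopx stood at 463, 383 and 461 CPM in weak CKO lungs, 446, 428 and 411 CPM in strong CKO lungs, and 584, 466 and 459 CPM in wild type lungs. The strong CKO libraries lay below the lowest wild type library by a narrow margin, and WT_265_1 stood well above the other libraries. The log2 change was −0.23 ± 0.11 in strong CKO lungs (edgeR adjusted p = 0.142) and −0.21 ± 0.11 in weak CKO lungs (edgeR adjusted p = 0.242), and without that library the strong CKO value was −0.11. Hopx shares 412 exon bases with the antisense gene Hopxos, which was counted 213 to 363 times per library against at least 11847 counts for Hopx, and without a stated strand reads of the pair cannot be told apart. Aqp5, the apical water channel of type 1 cells, stood at 124, 108 and 123 CPM in weak CKO lungs, 109, 103 and 103 CPM in strong CKO lungs, and 144, 97.6 and 122 CPM in wild type lungs. All 6 mutant libraries lay inside the wild type range, and the log2 change was −0.21 ± 0.12 in strong CKO lungs (edgeR adjusted p = 0.233) and −0.036 ± 0.12 in weak CKO lungs (edgeR adjusted p = 0.881).

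**Figure D3:**
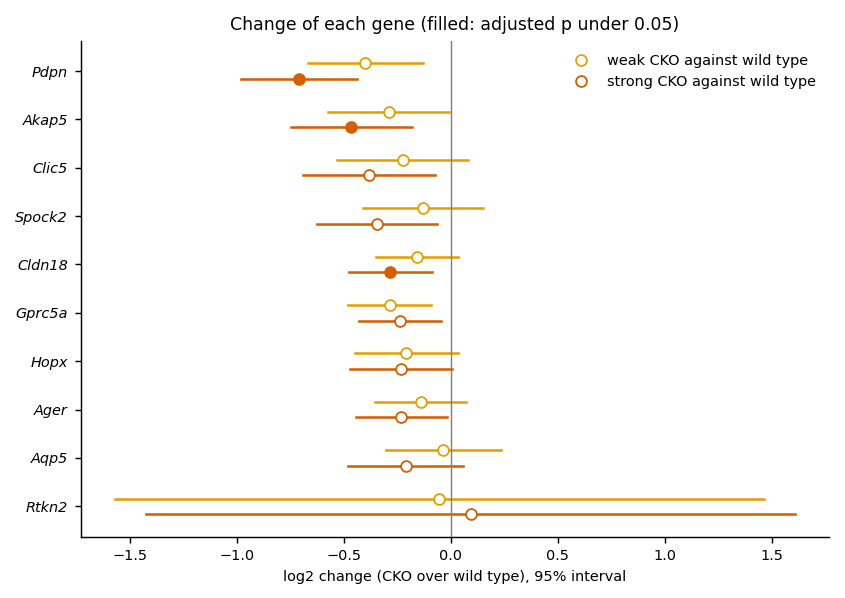
Log2 change over wild type (horizontal axis) for each alveolar type 1 gene in weak CKO lungs and strong CKO lungs, with 95% intervals. Filled points passed an adjusted p under 0.05: Pdpn, Akap5 and Cldn18 in strong CKO lungs. The intervals of Rtkn2 reach from −1.57 to 1.61.

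Counted over the list, no gene was called in weak CKO lungs by edgeR's quasi-likelihood test, against 14.5% of all genes that changed and 5.38% that fell. At an unadjusted p under 0.05 the count was 3 of 10, against 28.6% of all genes, and DESeq2 called 2 of 10 and 3511 genes in all, 1453 of them lower. All 10 log2 changes were below 0 in weak CKO lungs, as were 51.2% over all genes, with a median of −0.18, against −0.0077 over all genes. Without WT_265_1 the median was −0.076 and 7 of the 10 values lay below 0, with Ager at −0.065, Clic5 at −0.067, Hopx at −0.085, Spock2 at 0.043, Aqp5 at 0.11 and Rtkn2 at 0.65. The weak CKO median was −0.12 without MUT_W_268_3, −0.30 without WT_549_2, and −0.11 in a fit that held the erythroid level as a term. Every strong CKO library lay below every wild type library for 7 of the 10 genes, as it did for 19% of all genes, and every weak CKO library did so for 1 of the 10 genes, Gprc5a, against 13.8% of all genes. Both comparisons share the 3 wild type libraries. The count of 3 in strong CKO lungs became 1 without WT_265_1, MUT_S_265_5, MUT_S_268_4 or MUT_S_860_3, and 6 without WT_268_1. The count of 0 in weak CKO lungs became 1 without WT_268_1, WT_549_2, MUT_W_265_2 or MUT_W_549_3. DESeq2 called 7 of the 10 in strong CKO lungs and 5393 genes in all, 2467 of them lower.

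With the average of both CKO groups set against wild type, 3 of the 10 genes fell, Pdpn (log2 change −0.55 ± 0.10, edgeR adjusted p = 0.00357), Gprc5a (−0.26 ± 0.075, edgeR adjusted p = 0.0264) and Akap5 (−0.38 ± 0.11, edgeR adjusted p = 0.0274), against 26.5% of all genes that changed and 11.5% that fell. Cldn18 missed the threshold there (−0.22 ± 0.074, edgeR adjusted p = 0.0521). This count became 1 without WT_265_1, MUT_W_268_3 or MUT_S_265_5, with Pdpn at −0.42 to −0.67 over all 9 libraries left out in turn.

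Strong CKO lungs were also set directly against weak CKO lungs. No gene of the 10 was called by edgeR's quasi-likelihood test or by DESeq2, and 1 of the 10, Pdpn, had an unadjusted p under 0.05, against 5.67% of all genes. Over all genes 0.00516% were called. The log2 difference of Pdpn was −0.31 ± 0.12 (SE, 95% interval −0.58 to −0.040, edgeR adjusted p = 0.873). Every strong CKO library lay below every weak CKO library for 2 of the 10 genes, Pdpn and Spock2, as it did for 6.73% of all genes. The other 9 log2 differences ran from −0.21 for Spock2 to 0.15 for Rtkn2, and all of their 95% intervals held 0. For Ager the interval ran from −0.30 to 0.12 and for Gprc5a from −0.15 to 0.24.

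The genes other than Rtkn2 rose and fell together from library to library. Over the 9 libraries the Pearson r of log2 CPM in the 36 pairs without Rtkn2 ran from 0.33 to 0.93 with a median of 0.76, highest for Cldn18 with Ager (0.93). The 9 pairs with Rtkn2 ran from −0.11 to 0.50. These are descriptions over 9 libraries that share their groups and depth, and WT_265_1 is the highest for most of these genes. Among 11246 genes compared, the 8 closest to the mean of the 10 genes were Epas1 (r = 0.99), Serinc3 (0.98), Sqor (0.98), Rdx (0.98), Gm33489 (0.97), Rb1cc1 (0.97), Rxra (0.97) and Vps36 (0.96). Epas1 encodes the hypoxia-inducible factor HIF-2alpha, and its log2 change was −0.65 in strong CKO lungs (edgeR adjusted p = 0.0175) and −0.36 in weak CKO lungs (edgeR adjusted p = 0.186). Rdx encodes radixin, a linker of membrane and actin, with −0.21 in strong CKO lungs (edgeR adjusted p = 0.106) and −0.11 in weak CKO lungs (edgeR adjusted p = 0.479).

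A second list of 18 other genes used for type 1 cells was tested beside these 10. Of the 18, 8 fell and 1 rose in strong CKO lungs with a median log2 change of −0.30, and 3 fell in weak CKO lungs with a median of −0.25. Over all genes 11.0% fell in strong CKO lungs and 5.38% in weak CKO lungs. Lama3, a laminin chain of the epithelial basement membrane, averaged 370.1 ± 15.5 CPM in strong CKO lungs and 573 ± 98.6 CPM in wild type lungs (SD, n = 3 each), with a log2 change of −0.63 ± 0.12 (edgeR adjusted p = 0.00326). Lmo7, a protein of actin-based cell junctions, changed by −0.53 ± 0.11 (edgeR adjusted p = 0.00628), Gramd2 by −0.28 ± 0.061 (edgeR adjusted p = 0.00819), and Emp2, a tetraspan membrane protein, by −0.42 ± 0.099 (edgeR adjusted p = 0.0114). Cav1 (−0.61), Timp3 (−0.37), Agrn (−0.33) and Vegfa (−0.28) complete the 8 that fell in strong CKO lungs. Other lung cells, such as those of blood vessels, can add to genes of this list, and their part was not tested. Igfbp2, which binds insulin-like growth factors and marks mature type 1 cells, was the 1 that rose (0.78 ± 0.19, edgeR adjusted p = 0.0122), and is named after its value was seen. Without WT_265_1, 5 fell and 2 rose in strong CKO lungs. Without MUT_S_265_5 the number that fell was 4, and without WT_268_1 or MUT_S_860_3 it was 5. In weak CKO lungs the number that fell ran from 1 to 5 as each library was left out, 5 without WT_549_2 and 1 without WT_268_1, MUT_W_268_3, MUT_W_549_3 or MUT_S_860_3.

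Of 16 genes listed as regulators of type 1 cells, 4 fell in strong CKO lungs and 2, Tead4 and Nkx2-1, fell in weak CKO lungs. The 16 include Ctgf and Cyr61, which are targets of YAP and TAZ rather than regulators and passed in neither CKO group. Over all genes 11.0% fell in strong CKO lungs and 5.38% in weak CKO lungs. The median log2 change of the list was −0.11 in strong CKO lungs and −0.073 in weak CKO lungs. Yap1 (−0.054), Wwtr1 (−0.15), Tead1 (0.052), Tead2 (0.036) and Tead3 (−0.22) passed in neither CKO group, with strong CKO values given. Tead4, a DNA-binding partner of YAP and TAZ, averaged 29.6 ± 1.21 CPM in weak CKO lungs, 28.2 ± 3.31 CPM in strong CKO lungs and 43.3 ± 2.40 CPM in wild type lungs (SD, n = 3 each), log2 changes of −0.55 ± 0.091 (edgeR adjusted p = 0.00347) and −0.62 ± 0.092 (edgeR adjusted p = 0.00105). The 6 mutant libraries, at 24.5 to 30.9 CPM, did not reach the lowest wild type library at 40.6 CPM. Nkx2-1, the lung epithelial homeodomain factor, changed by −0.26 ± 0.059 in weak CKO lungs (edgeR adjusted p = 0.0163) and −0.20 ± 0.059 in strong CKO lungs (edgeR adjusted p = 0.0305). Nr3c1, the glucocorticoid receptor, fell by 0.43 ± 0.079 on the log2 scale and Gata6, a zinc finger factor of distal epithelium and other tissues, by 0.26 ± 0.077 in strong CKO lungs. The count of 4 in strong CKO lungs became 2 without MUT_W_268_3 or any 1 strong CKO library. The count of 2 in weak CKO lungs became 1 without MUT_W_268_3, and without WT_265_1 2 genes of the list rose in strong CKO lungs. Each of these regulators is also made outside type 1 cells, and several, Gata6, Nr3c1 and Tead4 among them, also outside the epithelium.

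Next to the type 1 genes, the other cell lists gave the following. Over all genes 25.6% changed in strong CKO lungs and 11.0% fell, and in weak CKO lungs 14.5% changed and 5.38% fell. The rest of the changed genes rose. Of 13 alveolar type 2 genes 9 fell in strong CKO lungs with a median log2 change of −0.46, and 2 fell in weak CKO lungs with −0.18, among them Lpcat1, an enzyme of surfactant lipid synthesis, at −0.57 ± 0.087 in strong CKO lungs (edgeR adjusted p = 0.00122). Without WT_265_1, 6 of the 13 fell and 1 rose in strong CKO lungs, and 3 fell without MUT_S_265_5 and 5 without MUT_S_860_3. In weak CKO lungs the count was 0 without MUT_W_265_2, and the median was −0.022 without WT_265_1 and 0.0052 in the fit with the erythroid term. Of 14 general epithelial genes 2 rose in both CKO groups, Ehf and Elf3, and the median was 0.089 in weak CKO lungs and 0.070 in strong CKO lungs. The number that rose became 4 in strong CKO lungs without WT_265_1 or MUT_S_860_3, and 1 in weak CKO lungs without WT_268_1, MUT_W_265_2 or MUT_W_549_3. The weak CKO median ran from 0.036 without WT_549_2 to 0.14 without WT_265_1. Of 12 airway genes 9 rose in strong CKO lungs (median 1.14) and 5 in weak CKO lungs (median 0.85), as with Scgb3a2, a secretory protein of airway cells, at 1.34 ± 0.16 in strong CKO lungs. Of 10 blood vessel genes 10 fell in strong CKO lungs (median −0.79) and 5 in weak CKO lungs (median −0.46), the first count running from 9 to 10 and the other from 1 to 8 as each library was left out. Of 7 cardiac-type muscle genes 5 rose and 1 fell in strong CKO lungs, and 2 rose and 1 fell in weak CKO lungs. As each library was left out, 3 to 6 of these rose in strong CKO lungs and 0 to 4 in weak CKO lungs, with 3 without WT_265_1 or WT_268_1 in strong CKO lungs and 0 without WT_265_1, WT_268_1 or MUT_W_549_3 in weak CKO lungs, and 0 to 1 fell in either group. Erythroid genes summed to 3778 to 4395 CPM in weak CKO lungs, 6765 to 12696 CPM in strong CKO lungs and 3950.5 to 7402 CPM in wild type lungs. With the haemoglobin and mitochondrial genes removed the type 1 count was again 3 in strong CKO lungs. That removal acts only through the scaling and left the type 1 median at −0.26, so it cannot show what blood content does. With the erythroid level as a term the count was 5, of 4644 genes called in all. The part of these other cell types in the type 1 values was not tested.

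**Figure D4:**
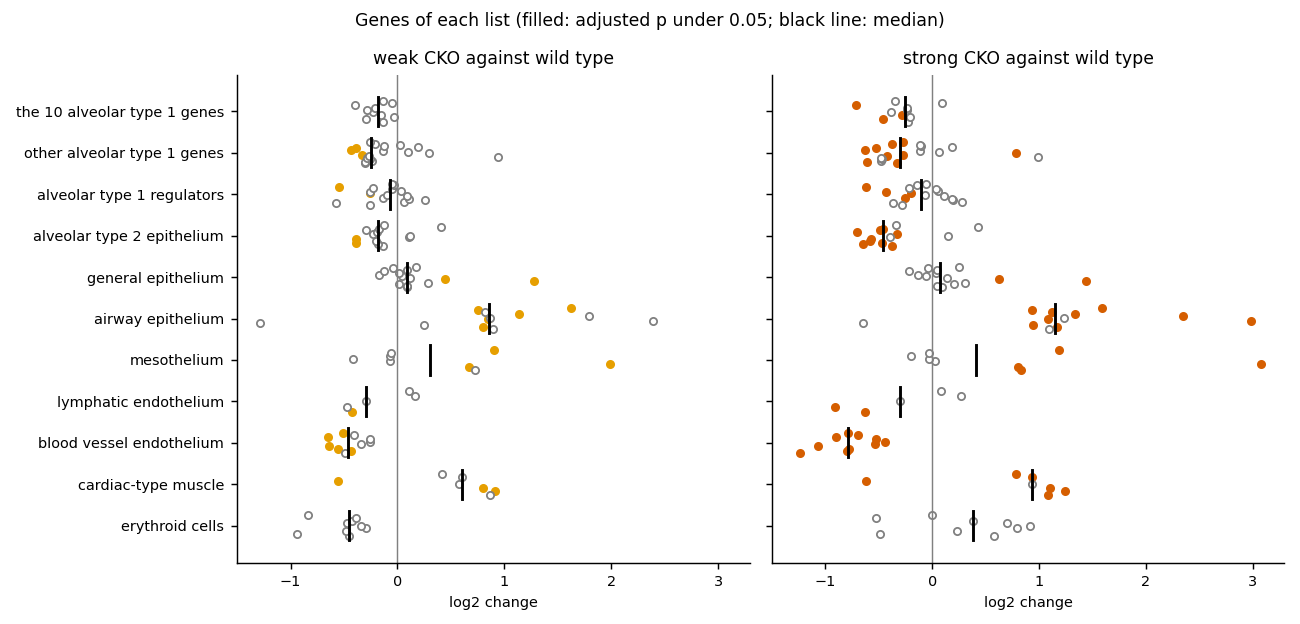
Log2 change over wild type (horizontal axes) of each tested gene of the type 1 list and of the companion lists, in weak CKO lungs (left) and strong CKO lungs (right). Filled points passed an adjusted p under 0.05 and black lines are medians. The type 1 median is −0.18 in weak CKO lungs and −0.26 in strong CKO lungs, between the airway lists above 0 and the blood vessel list at −0.46 and −0.79.

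Set against the general epithelial list, the 10 genes were lower in both CKO groups. The mean log2 CPM of the 10 minus that of the 14 general epithelial genes was 2.56, 2.44 and 2.36 in weak CKO lungs, 2.25, 2.27 and 2.42 in strong CKO lungs, and 2.98, 2.68 and 2.72 in wild type lungs. With all 14 genes in the list, neither CKO group overlapped wild type. That list holds Ehf and Elf3, which rose, with log2 changes of 1.28 and 0.44 in weak CKO lungs and 1.43 and 0.62 in strong CKO lungs. Their rise lowers the difference in CKO lungs. Whether weak CKO lungs would stay below wild type without them was not tested, so the separation cannot be credited to the 10 genes alone. The mean log2 change of all 14 genes was 0.16 in weak CKO lungs and 0.19 in strong CKO lungs, and without Ehf and Elf3 it was 0.048 in weak CKO lungs and 0.055 in strong CKO lungs. The other 12 genes changed by −0.22 to 0.31 in strong CKO lungs. With library sizes scaled to this list, Ehf and Elf3 included, a choice made after seeing the data, 9 of the 10 genes passed in strong CKO lungs and 4 in weak CKO lungs, against 22.2% and 10.3% of all genes that fell under the same scaling. That scaling moved the median of all genes by −0.19 in strong CKO lungs and −0.16 in weak CKO lungs. Among called genes the share that fell was then 71.2% in strong CKO lungs and 65.4% in weak CKO lungs, against 43.0% and 37.2% with TMM. Relative to the median of all genes, the median of the 10 was −0.26 in strong CKO lungs and −0.17 in weak CKO lungs under both scalings. A rescaling of libraries shifts all genes nearly alike, so this sameness was fixed by the method. Set against the 13 type 2 genes, the difference was −0.77, −1.05 and −0.84 in weak CKO lungs, −0.57, −0.87 and −0.84 in strong CKO lungs, and −0.80, −0.79 and −0.89 in wild type lungs, and all 3 groups overlapped.

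**Figure D5:**
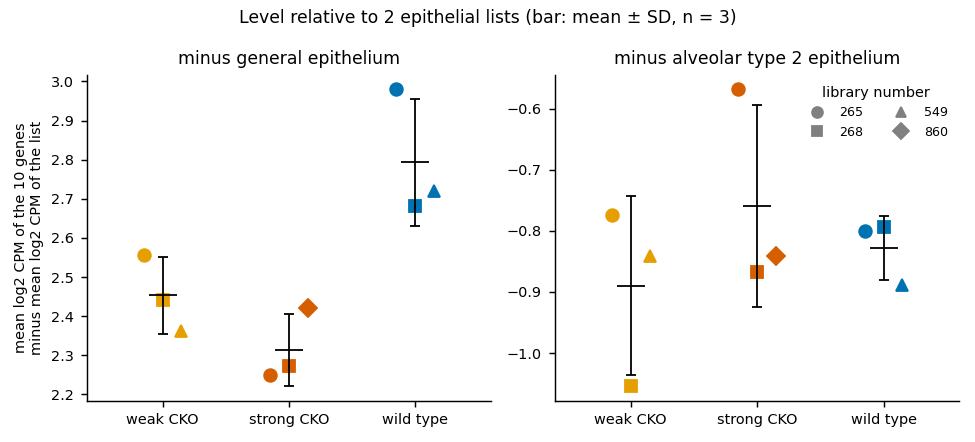
Mean log2 CPM of the 10 alveolar type 1 genes minus that of the general epithelial list (left) and of the alveolar type 2 list (right), vertical axes in log2 units that do not start at 0. Points are libraries and bars the mean ± SD of 3 libraries. Against general epithelium weak CKO (2.36 to 2.56) and strong CKO (2.25 to 2.42) lie below wild type (2.68 to 2.98). That list includes Ehf and Elf3, which rose in both CKO groups. Against type 2 genes the groups overlap.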

How the data were processed

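RNA was measured in 9 whole E18.5 mouse lungs, 3 per group. Per the labels' protocols, total RNA was purified with Trizol and spin columns and made into TruSeq libraries read as single reads. The submitters' processing notes list STAR, Trimmomatic 0.36, cutadapt 2.5, FastQC 0.11.8, edgeR 3.28.1 and the GRCm38.p6 build. How reads were counted, on which annotation and with which strand setting is not given in the sources used here. One table was used: its counts were deposited by the authors, 1 unnormalised column per library, and its RPKM values, per the file headers, were deposited by the authors beside them. They imply library sizes that are 1.03 to 1.13 times the summed counts of each column.

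From the counts, edgeR 4.0.16 in R 4.3.3 (TMM, filterByExpr by group, robust quasi-likelihood F test) was fitted to all 9 libraries with 1 mean per group, and p-values were Benjamini-Hochberg adjusted over 19374 genes, with 0.05 as the threshold. The standard error is the log2 change divided by the square root of F. Log2 CPM used a prior count of 2. Lengths for levels per kilobase were merged exons of GENCODE M21 (GRCm38). The common biological coefficient of variation was 0.15. Scripts were tested on simulated data. Alternatives were DESeq2 1.42.0, limma 3.58.1 on log2(RPKM + 1) and log2(RPKM + 0.1), other scalings, no filter, an erythroid covariate, a block on the library number and leaving out each library.

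All 10 genes are named. From each companion list the up to 4 called genes with the smallest adjusted p in strong CKO lungs were eligible to be named, and beside the 10 genes the 8 most like them with a mean log2 CPM of at least 3. The genes and lists were chosen with earlier results of these data known.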

Additional observations from a re-analysis of the deposited data

How the results depend on the processing

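Of the single-gene values recomputed under alternatives, 682 kept their direction and side of the threshold, 48 passed it newly, 22 no longer passed and 38 changed sign, and their causes were not tested. The fall of Pdpn in strong CKO lungs passed in all 20 alternatives, with log2 changes of −0.58 to −0.89. In weak CKO lungs the number of type 1 genes called was 1 with upper quartile factors, 1 with median-of-ratios factors, 2 with DESeq2 and 4 with scaling to general epithelium, while 2860, 2802, 3511 and 3062 genes were called in all. In strong CKO lungs it was 7 with DESeq2, 5 with an erythroid covariate and 9 with scaling to general epithelium, while 5393, 4644 and 6035 genes were called in all. For both CKO groups together it was 6 with DESeq2 and 9 with that scaling, of 5523 and 6671 genes in all. Over all genes strong against weak CKO gave 14 with DESeq2, 4 with only the groups compared, 2 with log2(RPKM + 0.1) and 0 with the erythroid covariate, against 1.

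Leaving out each library in turn gave 0 to 1 type 1 genes in weak CKO lungs, 1 to 6 in strong CKO lungs and 1 to 4 for both together. Over all genes it gave 1310 to 2828 in weak CKO lungs, 3101 to 4983 in strong CKO lungs and 1 to 4 for strong against weak CKO. The log2 change ran from −0.48 to 0.65 for Rtkn2, −0.17 to 0.11 for Aqp5 and −0.23 to 0.043 for Spock2 in weak CKO lungs. It ran from −0.23 to 0.80 for Rtkn2 in strong CKO lungs. For strong against weak CKO it ran from −0.13 to 0.57 for Rtkn2 and −0.11 to 0.020 for Hopx. For both groups together it ran from −0.30 to 0.73 for Rtkn2 and −0.26 to 0.020 for Aqp5.

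Signs also turned for Rtkn2 in weak CKO lungs with log2(RPKM + 1) (0.046), log2(RPKM + 0.1) (0.057) and the erythroid covariate (0.71), and with that covariate for Aqp5 (0.071) and Spock2 (0.017). In strong CKO lungs Rtkn2 was −0.093 with the covariate and −0.075 with scaling to general epithelium, which gave −0.13 for both groups together. For strong against weak CKO the covariate gave −0.80 for Rtkn2 and −0.091 for Gprc5a.

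With library number as a replicate block, 1 type 1 gene was called in weak CKO lungs, 5 in strong CKO lungs and 4 for both together, of 3926, 4450 and 5496 genes in all, and 3 genes of the whole table for strong against weak CKO. Under this block Rtkn2 was 0.060 in weak CKO lungs, −0.41 in strong CKO lungs, −0.47 for strong against weak CKO and −0.18 for both together, Gprc5a was −0.019 and Hopx 0.00051 for strong against weak CKO. Same-numbered libraries of weak CKO and wild type correlated in their deviations from group means at r = 0.30 for WT_265_1, −0.087 for WT_268_1 and 0.35 for WT_549_2. Differently numbered libraries of these groups gave −0.38 to 0.075, so WT_265_1 and WT_549_2 lay above that range and WT_268_1 inside it. Deviations from a group mean cancel out within the group, so a high same-numbered r pulls the differently numbered ones down. That range is therefore not an independent yardstick. Same-numbered strong CKO and wild type libraries gave 0.11 for WT_265_1 and 0.083 for WT_268_1. Those of strong and weak CKO gave 0.17 for MUT_S_265_5 and −0.00055 for MUT_S_268_4. The main fit did not take the numbers as pairs, and what they stand for is not known.

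With 3 libraries a group, the SE of the log2 changes between single groups was 0.087 to 0.14 for the genes other than Rtkn2. For both CKO groups together it was 0.074 to 0.12.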

Other observations

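The deposited gene length of Ager was 19389 bases, whereas its merged exons cover 2141 bases, a ratio of 9.06 against a median of 1.29 over all genes. For 26220 of 27189 genes found in GENCODE M21 the deposited length equalled the summed exon lengths of all transcripts plus 1 base per exon, and for 7985 genes it exceeded the span of the gene. Ager therefore ranked 5 of 10 in wild type lungs by counts per deposited kilobase, at 80.1 CPM per kilobase, and 1 of 10 by merged exons. Gprc5a, with a ratio of 1.002, ranked 1 by the deposited length. Changes between groups do not depend on the length, since it is the same in every library.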
